A study of Homo sapiens with 6 samples.

Results

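The mRNAs described here encode 8 proteins that build ribosomes in the nucleolus: *NPM1*, *NCL*, *FBL*, *NOP56*, *NOP58*, *DKC1*, *NOLC1* and *GNL3*. They were chosen by gene symbol, and not by a cut-off on a measured value, from 11597 coding genes with at least 1 exon count in either cell line. Earlier results of these data were known when they were chosen. The study mapped RNA bound by the translation initiation factor eIF4B by iCLIP, in which UV light joins the protein to RNA and the cDNA stops beside the joined nucleotide. The samples were 4 replicates of DoHH-2, a cell line derived from a diffuse large B-cell lymphoma (DLBCL), and 2 replicates of GM01953, a B-cell line from a disease-free individual. The cells carried no engineered allele and received no drug, and both lines were cross-linked with UVC, treated with RNase I and immunoprecipitated with an anti-eIF4B antibody. The lines are not isogenic, and each stands for its condition alone, so that differences between tumour and control cannot be told apart from differences between these lines.

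Ribosome assembly starts in the nucleolus, where the ribosomal RNA precursor is modified, folded and cleaved. Small nucleolar RNAs of the box C/D class guide 2′-O-methylation by FBL (fibrillarin), which sits in a complex with NOP56 and NOP58, and those of the box H/ACA class guide pseudouridylation by DKC1 (dyskerin). NCL (nucleolin) and NPM1 (nucleophosmin) are abundant acidic nucleolar proteins that act as RNA-binding protein and histone chaperone, NOLC1 (Nopp140) binds both classes of small nucleolar ribonucleoprotein, and GNL3 (nucleostemin) is a GTP-binding nucleolar protein. Several of these genes carry small nucleolar RNAs inside their introns, which are cut out of the same precursor as the mRNA.

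The deposited table of each cell line pooled all its replicates, and an SD or a test between the lines was therefore not possible. DoHH-2 held 2033156 cDNA counts at 1179243 positions and GM01953 held 167197 at 78474 positions, a 12.2-fold difference in depth. All intervals are 95% intervals of counting error only, and leave out the spread between replicates and PCR duplicates that remained. The B-cell genes *MS4A1*, *CD79A*, *CD79B* and *PAX5* held between 12 and 349 exon counts in DoHH-2 and between 7 and 143 in GM01953, whereas *CD3E*, *CD3D*, *LYZ* and *CD14* held 0 in both. iCLIP counts rise with the amount of an mRNA as well as with binding, and these cannot be told apart in the values used here.

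The sequences below surround the position with the highest count in each mRNA and show what eIF4B was cross-linked to. Each has 25 nt of GRCh38, read 5′ to 3′ on the strand of the mRNA with T for U, and the capital marks the position itself. GM01953 sequences are shown for the 4 mRNAs in which its highest position held at least 5 counts and the window stayed within 1 exon.
*NPM1*, DoHH-2, chr5:171407718-171407742, plus strand: gtggaagccaaaTtcatcaattatg
*NCL*, DoHH-2, chr2:231461829-231461853, minus strand: agccaaagcagtTaccacacctggc
*NCL*, GM01953, chr2:231454779-231454803, minus strand: catggtttttgcTtcagcggcttta
*FBL*, DoHH-2, chr19:39834523-39834547, minus strand: gaagaactgaagTtcagcgctgtca
*NOP56*, DoHH-2, chr20:2658336-2658360, plus strand: cccaaggtgacaTttcccaccctgt
*NOP58*, DoHH-2, chr2:202303596-202303620, plus strand: tgttaaccttatGtcatcatttctt
*NOP58*, GM01953, chr2:202292783-202292807, plus strand: gaaatctctgaaTatcgaacccagc
*DKC1*, DoHH-2, chrX:154777599-154777623, plus strand: gttttcttgttgAtctcatgctagc
*NOLC1*, DoHH-2, chr10:102152401-102152425, plus strand: tgcctggaggatGgcggacgccggc
*NOLC1*, GM01953, chr10:102157437-102157461, plus strand: ctgccaagcgagTcggtctgcctcc
*GNL3*, DoHH-2, chr3:52686044-52686068, plus strand: gcgccagcggagGcaggttgatgtg
*GNL3*, GM01953, chr3:52693492-52693516, plus strand: aagcggcttcaaTctggaagaactg

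Together the 8 genes held 6303 exon counts at 2940 positions in DoHH-2 and 328 at 181 positions in GM01953. Scaled to the depth of each line, in CPM (the counts-per-million scale), this was 3100 CPM (interval 3024–3178) in DoHH-2 and 1962 CPM (1755–2186) in GM01953. *NCL* alone made up 37.9% of the DoHH-2 and 31.4% of the GM01953 exon counts, and *NPM1* made up 15.7% and 26.2%. In a single gene, a count of 0 would have allowed up to 1.48 CPM in DoHH-2 and 17.9 CPM in GM01953, and all 8 genes were above this in both lines. Positions with an FDR below 0.05, taken as eIF4B binding sites, held 79.6% of the exon counts in DoHH-2 and 57.9% in GM01953. Of all counts at such positions in each line, the 8 genes held 5648 CPM in DoHH-2 and 2043 CPM in GM01953. The former lay above the 3100 CPM over all positions, and the latter within the interval of the 1962 CPM. In GM01953 such positions thus held about the same part of these exon counts as of all counts. The part of depth in these FDR calls was not tested.

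To compare the genes with each other, counts on the MANE Select mRNA, the reference transcript of each gene, were divided by its length and the depth. In DoHH-2 this level was 309 CPM per kb for *NPM1*, 296 for *NCL*, 164 for *DKC1*, 137 for *NOP58*, 131 for *FBL*, 93.3 for *NOP56*, 80.5 for *NOLC1* and 50.6 for *GNL3*. The intervals of *NPM1* and *NCL* overlapped, as did those of *NOP58* and *FBL* and those of *NOP56* and *NOLC1*, so that the order within these pairs is not resolved by counting. In GM01953 the level was 326 CPM per kb for *NPM1*, 154 for *NCL*, 96.0 for *NOP58*, 81.3 for *NOP56*, 68.1 for *GNL3*, 63.8 for *FBL*, 48.4 for *DKC1* and 41.8 for *NOLC1*. There *NPM1* stood above *NCL* with no overlap of the intervals, and each neighbouring pair below *NPM1* overlapped. The full length was the divisor, although counts were sparse in long parts of these 2 mRNAs. Only 14.3% of the words of 31 nt in *NPM1* occurred once in the genome. These held 2947 counts per kb in DoHH-2, against 240 elsewhere in this mRNA. The last 1160 nt of *NCL* held 10 counts in DoHH-2 and 0 in GM01953. The part of these limits in the order of *NPM1* and *NCL* was not tested. The levels lay between the 91.4th and 98.7th percentile of the 10890 coding genes with mRNA counts in DoHH-2. They lay between the 85.8th and 98.4th percentile of 8584 such genes in GM01953.

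**Figure D1:**
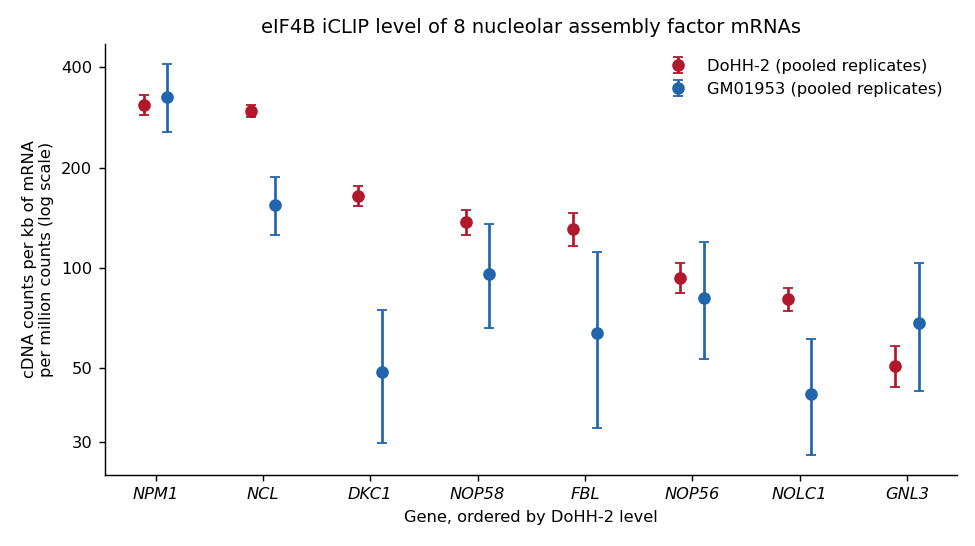
Level of each mRNA on a log axis, in CPM per kb of MANE Select mRNA, with the genes ordered by the DoHH-2 value. Points are the pooled value of each cell line and bars are exact Poisson 95% intervals of counting error; *NPM1* is at 309 in DoHH-2 and 326 in GM01953, whereas *DKC1* is at 164 and 48.4.

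Nucleophosmin mRNA (*NPM1*, ENSG00000181163, chr5:171387116-171411810) held 989 exon counts in DoHH-2 and 86 in GM01953. As a share of all counts these were 486 CPM (457–518) and 514 CPM (411–635), and the intervals overlapped. In the mature mRNA of 1320 nt, 218 of 829 counts in DoHH-2 and 22 of 72 in GM01953 fell within the first 50 nt. Both cell lines thus placed their densest 50 nt window of this mRNA at its 5′ end. In GM01953 that window held 23 counts, but nt 751 to 800 in the coding sequence held 21, a difference that these counts cannot resolve. In DoHH-2 nt 751 to 800 held 51 counts. The highest DoHH-2 position, in exon 10 and the coding sequence, held 38 counts and was listed with 2 in GM01953. The highest GM01953 position was the second base of exon 9 (chr5, position 171405303), with 11 counts there and 7 in DoHH-2.

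*NPM1* has 49 annotated pseudogenes named after it, which limits where its reads can be placed. Only 189 of the 1320 words of 31 nt in its mRNA occurred once in the reference genome. These held 557 of 829 counts in DoHH-2 and 58 of 72 in GM01953, or 2947 counts per kb against 240 elsewhere in DoHH-2. The first 50 nt were unique throughout, whereas nt 301 to 350 and 401 to 550 held neither a unique word nor a count in either line. Of the pseudogenes, 36 held 212 counts in DoHH-2 and 6 held 8 counts in GM01953. The word at the highest DoHH-2 position of *NPM1* was not unique, and how reads that match several places were treated is not given in the sources used here. A further 156 exon counts at 73 positions in DoHH-2, and 14 at 10 positions in GM01953, lay outside the MANE mRNA in chr5:171406397-171407125. This is the last exon of 2 other coding transcripts of *NPM1*, and it was looked at after its counts were seen.

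Nucleolin mRNA (*NCL*, ENSG00000115053, chr2:231453531-231483641) had the most counts of the 8, with 2391 exon counts in DoHH-2 and 103 in GM01953. This was 1176 CPM (1129–1224) in DoHH-2 and 616 CPM (503–747) in GM01953, intervals that did not overlap. Its highest DoHH-2 position, in exon 3 and the coding sequence, held 41 counts, with 1 count at the same position in GM01953. Its highest GM01953 position, 400 nt after the stop codon, held 9 counts, and DoHH-2 held 8 at the same position and 16 within 5 nt. The annotated 3′ UTR has 1660 nt, but the first 500 nt of it held 904 DoHH-2 counts and 20 GM01953 counts, and the remaining 1160 nt held 10 and 0. The last position with at least 3 counts was 411 nt after the stop codon in DoHH-2 and 400 nt after it in GM01953. The point of 500 nt was chosen after the counts were seen. The densest window in DoHH-2, nt 2492 to 2541 in this 3′ UTR, held 234 counts, although only 28 of its 50 words were unique. In GM01953 the densest window was in the coding sequence, with 11 counts.

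Of the box C/D proteins, the methyltransferase fibrillarin (*FBL*, ENSG00000105202, chr19:39834458-39846379) held 299 exon counts in DoHH-2 and 12 in GM01953, or 147 CPM (131–165) and 71.8 CPM (37.1–125). Its mRNA of 1125 nt was occupied at both ends in DoHH-2, with 83 of 299 counts in the first 100 nt and 86 in the last 100 nt. The highest position, 3 nt after the stop codon, held 8 counts. In GM01953 the first 100 nt held 3 of 12 counts and the last 100 nt held 0, a difference that 12 counts cannot resolve.

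*NOP56* (ENSG00000101361, chr20:2652593-2658393) held 408 exon counts in DoHH-2 and 26 in GM01953, which was 201 CPM (182–221) and 156 CPM (102–228). Near its 3′ end both cell lines had their densest window at nearly the same place, nt 1824 to 1873 with 77 of 363 mRNA counts in DoHH-2 and nt 1822 to 1871 with 12 of 26 in GM01953. The highest DoHH-2 position lay 54 nt after the stop codon and 46 nt from the 3′ end, with 17 counts, and GM01953 had 11 counts within 5 nt of it. The first 100 nt held 3 counts in DoHH-2 and 0 in GM01953.

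*NOP58* (ENSG00000055044, chr2:202265736-202303661) held 555 exon counts in DoHH-2 and 32 in GM01953, which was 273 CPM (251–297) and 191 CPM (131–270). Like its partner *NOP56*, it was densest near the 3′ end in both cell lines. The window from nt 1900 to 1949 held 119 of 555 counts in DoHH-2, and that from nt 1892 to 1941 held 7 of 32 in GM01953. In GM01953 nt 951 to 1000 in the coding sequence held 6, so that the densest window there is not resolved by counting. The highest position, 172 nt after the stop codon, held 42 counts in DoHH-2 and 3 in GM01953, but its word of 31 nt was not unique in the genome. The highest GM01953 position was in exon 9, with 6 counts there and 5 in DoHH-2. The letters AATAAA, a common form of the polyadenylation signal, began 21 nt before the 3′ end of *NOP56* and 24 nt before that of *NOP58* on the mRNA strand, and 63.4% of 20046 reference mRNAs hold them in the last 50 nt.

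Dyskerin, the pseudouridine synthase of box H/ACA particles (*DKC1*, ENSG00000130826, chrX:154762742-154777689), held 841 exon counts in DoHH-2 and 21 in GM01953. Its share was 414 CPM (386–443) in DoHH-2 and 126 CPM (77.7–192) in GM01953. In DoHH-2 418 of 823 mRNA counts lay in the 3′ UTR beyond the stop codon region, and the highest position, 79 nt from the 3′ end, held 19 counts. In GM01953 that position held 0 counts and the same part of the 3′ UTR held 5 of 20.

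*NOLC1*, which binds both classes of particle (ENSG00000166197, chr10:102152176-102163871), held 612 exon counts in DoHH-2 and 26 in GM01953, or 301 CPM (278–326) and 156 CPM (102–228). Its 5′ UTR has 22 nt, and its highest DoHH-2 position was the third base of the start codon, with 10 counts. The window from nt 15 to 64 held 62 of 609 mRNA counts in DoHH-2. GM01953 was densest at nt 308 to 357 in the coding sequence, with 6 counts, all of them at 1 position in exon 4 that held 0 in DoHH-2.

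Nucleostemin mRNA (*GNL3*, ENSG00000163938, chr3:52681156-52694497) had the fewest counts of the 8 in DoHH-2, with 208 exon counts there and 22 in GM01953. Its share was 102 CPM (88.9–117) in DoHH-2 and 132 CPM (82.5–199) in GM01953. Its first 50 nt held 54 of 199 mRNA counts in DoHH-2 and 5 of 22 in GM01953. The highest DoHH-2 position, 37 nt before the start codon, held 7 counts and was not listed in GM01953. The highest GM01953 position, in exon 12, held 8 counts and was not listed in DoHH-2.

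**Figure D2:**
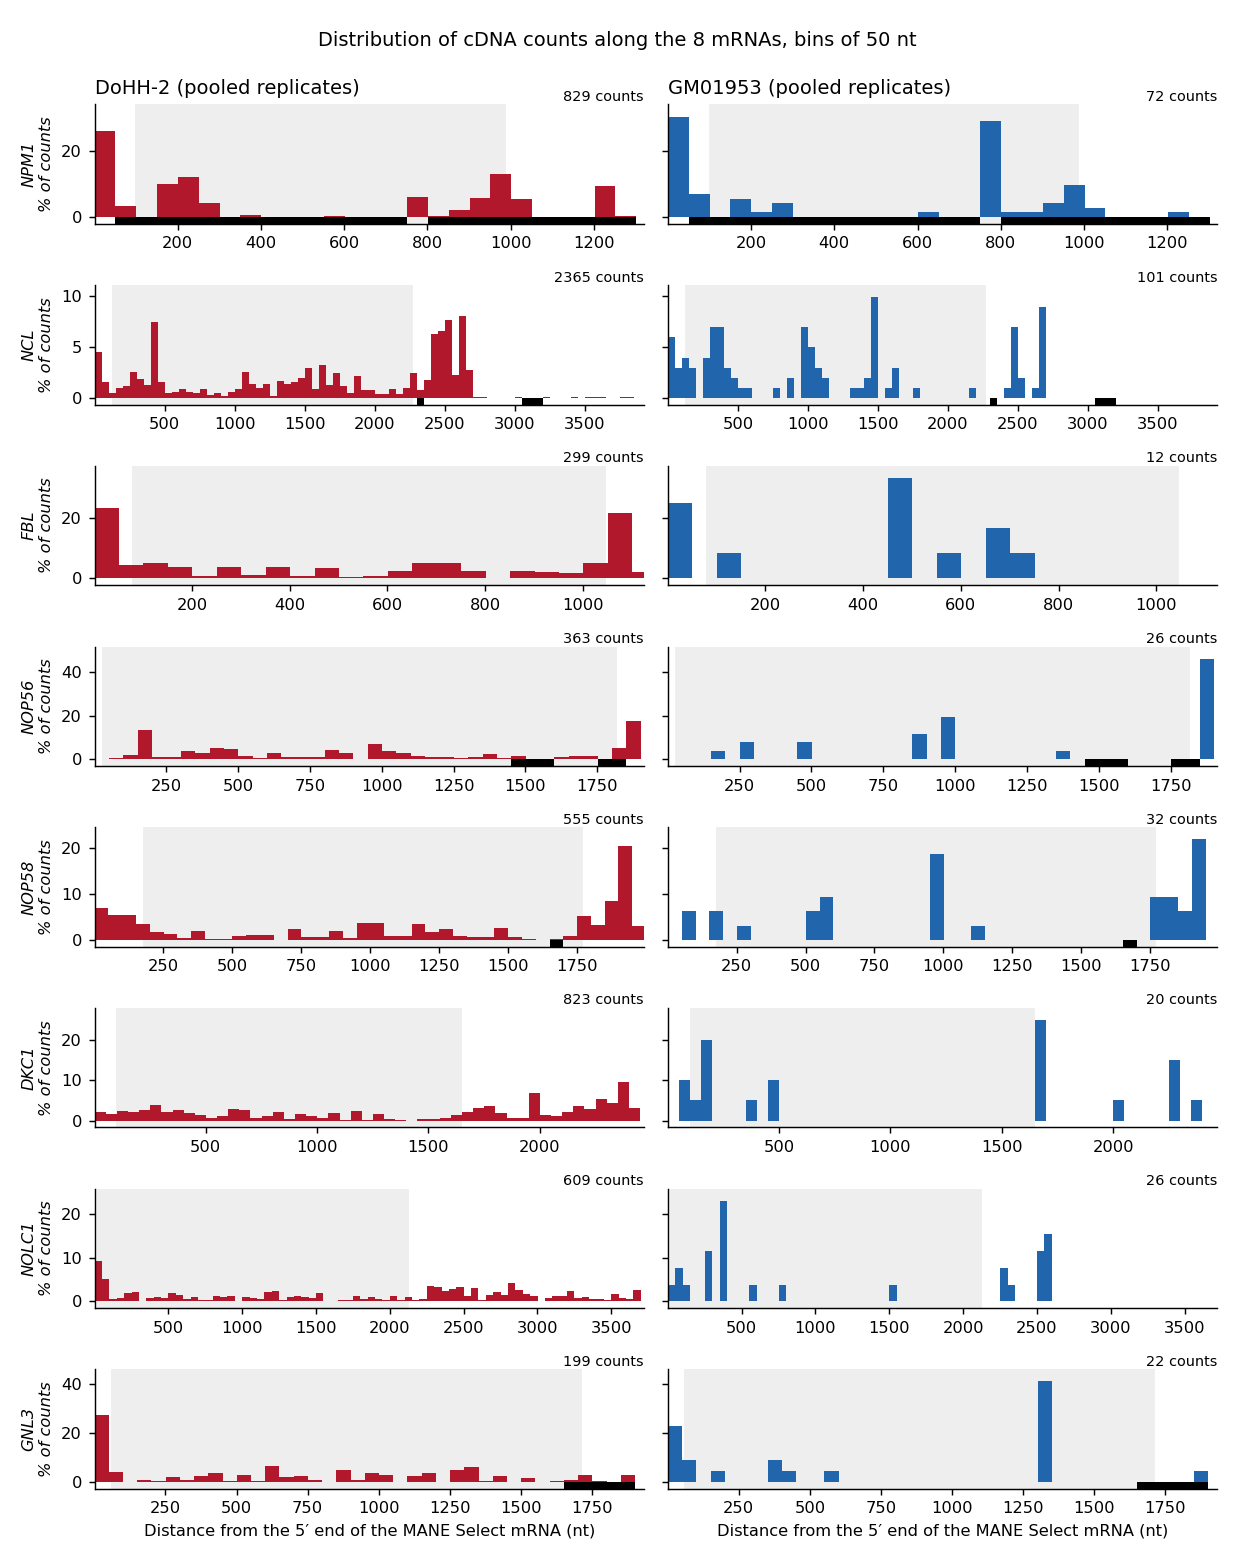
Share of each mRNA's counts in bins of 50 nt along the MANE Select mRNA (x axis, nt from the 5′ end; y axis, % of counts; the last bin may be shorter), with DoHH-2 in red and GM01953 in blue. The coding sequence is shaded, and black marks below the axis show bins in which under 50% of the words of 31 nt occur once in the genome; *NPM1* and *GNL3* are high at the 5′ end in both lines and *NOP56* and *NOP58* near the 3′ end.

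To compare the cell lines, the exon share of each gene in DoHH-2 was divided by that in GM01953. Of the 8 ratios, 6 were above 1. In the 2610 coding genes described below, 60.2% of ratios lay under 0.946, that of *NPM1*, and 78.2% under 1.29, that of *NOP56*. How many of those genes had an interval above 1 was not counted. The ratio was 3.29 (2.14–5.35) for *DKC1*, 2.05 (1.16–4.01) for *FBL*, 1.94 (1.31–2.99) for *NOLC1* and 1.91 (1.57–2.35) for *NCL*, and these intervals lay above 1. It was 1.43 (0.999–2.11) for *NOP58*, 1.29 (0.868–2.00) for *NOP56*, 0.946 (0.758–1.19) for *NPM1* and 0.777 (0.500–1.27) for *GNL3*, and these intervals held 1. *DKC1* and *FBL*, 2 of the 8, were at least 2-fold higher in DoHH-2, and 0 of 8 were at least 2-fold lower. Among the 2610 coding genes with at least 10 exon counts in each line, 6.74% were at least 2-fold higher and 27% at least 2-fold lower, with a median ratio of 0.786. The median of the 8 members was 1.67, and their ratios lay between the 49.5th and 98.7th percentile of those genes. A minimum of 10 counts is 59.8 CPM in GM01953 and 4.92 CPM in DoHH-2, which favours genes with a low ratio in that background. The call for *FBL* was lost when counts in coding exons were the denominator (ratio 1.86, 1.05–3.64), and *DKC1* kept it (2.99, 1.94–4.86). With each position counted once the ratio was 2.57 (1.49–4.86) for *DKC1* and 1.94 (1.17–3.50) for *NOLC1*, but 1.46 (0.727–3.44) for *FBL* and 1.09 (0.831–1.45) for *NCL*, whose intervals then held 1. The ratio of *NPM1* moved most, to 0.372 (0.269–0.525). Shares were here taken of all listed positions, of which 83.9% held a single count in DoHH-2 and 60.8% in GM01953. In *NPM1* a position held 4.02 counts on average in DoHH-2 and 1.95 in GM01953, which counting it once leaves out. The part of depth in this lower ratio was not tested. In this setting 1 member, *DKC1*, was at least 2-fold higher and 1, *NPM1*, at least 2-fold lower, against 7.43% and 23% of the same 2610 genes. Over positions with an FDR below 0.05 the ratio was 8.76 (2.96–42.8) for *FBL*, 5.31 (3.01–10.3) for *DKC1*, 4.25 (3.24–5.69) for *NCL*, 3.16 (1.89–5.68) for *NOP58*, 2.07 (1.24–3.75) for *NOLC1* and 1.51 (1.17–1.97) for *NPM1*. Here each share was taken of all counts at such positions in the line. By this measure 5 members were at least 2-fold higher and 0 at least 2-fold lower, against 18.2% and 43.8% of those genes. The number of members past 2-fold, and the direction for *NPM1*, thus depended on which positions were counted. For the 8 genes together the ratio was 1.58 (1.41–1.77). It was 2.76 (2.39–3.21) over positions with an FDR below 0.05, and 1.08 (0.930–1.26) with each position counted once.

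Where on the mRNA the counts fell was summarised in 5 regions, with a start and a stop codon region that each extend 50 nt either way. The coding sequence held 47.5% of the 6042 DoHH-2 mRNA counts of the 8 genes (46.3–48.8) and the 3′ UTR held 31.6% (30.5–32.8). The 5′ UTR held 8.44% (7.77–9.17), the start codon region 5.33% (4.79–5.92) and the stop codon region 7.05% (6.43–7.72). In GM01953 the coding sequence held 54.7% (49.1–60.1) of 311 counts, the 3′ UTR 18.3% (14.4–23.0), the 5′ UTR 10.6% (7.66–14.5), the start codon region 9.65% (6.84–13.4) and the stop codon region 6.75% (4.46–10.1). The summed share in the 3′ UTR was lower in GM01953 with no overlap of the intervals, but it depends on the mix of genes. The mean of the members' own shares was 25.1% in DoHH-2 and 19.9% in GM01953, *NOP56* had 15.4% in DoHH-2 and 38.5% in GM01953, and *NOP58* had 32.6% and 31.2%. The 3′ UTR share was also lower in GM01953 over all coding genes other than histones, at 23.0% against 32.8%.

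The mRNAs of cytosolic ribosomal proteins, the other protein set needed to make ribosomes, had a different distribution. In DoHH-2 their start codon region held 24.3% (23.9–24.8) and their stop codon region 22.2% (21.8–22.7) of 35551 counts, but their 3′ UTR held 3.25% (3.07–3.44). In GM01953 these shares were 20.4% (19.0–21.9), 27.4% (25.9–29.1) and 5.09% (4.35–5.94). These mRNAs are shorter, so that the codon regions took up 13.4% of their length against 8.69% in the 8 members. The annotated 3′ UTR took up 56.7% of their length in DoHH-2, against 25.2% in the members. In coding genes other than histones the start codon region held 9.43%, the stop codon region 5.63% and the 3′ UTR 32.8% of DoHH-2 counts. The 8 members were nearer to these shares than the ribosomal protein genes were. Counted per kb, the 8 members had 1449 counts in the 5′ UTR, 415 at the start codon, 243 in the coding sequence, 412 in the 3′ UTR and 517 around the stop codon in DoHH-2. The 5′ UTR was the densest region of the summed mRNAs in both lines, with 93.8 counts per kb in GM01953 against 38.7 at the start codon. *NPM1* supplied 22 of those 33 counts in GM01953, and without it the 5′ UTR had 36.4 counts per kb and the start codon region 37.2, so that the order there rested on *NPM1*. In DoHH-2 the 5′ UTR had 967 counts per kb without *NPM1*, against 439 at the start codon.

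The mRNAs of ribosomal proteins begin with C and a run of pyrimidines, the 5′ TOP sequence through which their translation follows growth signals. The first 25 nt of *NPM1* and *FBL* are printed here because these mRNAs begin in the same way, with the pyrimidine run in capitals.
*NPM1*, chr5:171387849-171387873, plus strand: CTTTCCCTggtgtgattccgtcctg
*FBL*, chr19:39846355-39846379, minus strand: CTTTTCCacgtgcgaaagccccgga
A start with C in a run of at least 5 pyrimidines was found in these 2 of the 8 mRNAs and in 4.58% of the 20046 reference mRNAs. *NPM1* had 29.6% of its mRNA counts in the first 100 nt in DoHH-2 and 37.5% in GM01953, and *FBL* had 27.8% and 25%. In *NPM1* only 14.3% of the words of 31 nt were unique, against 85.4% to 98.5% in the other members, and its first 50 nt were unique throughout. Its share at the 5′ end is therefore not directly comparable with theirs. *GNL3*, which begins with A, had 31.2% and 31.8%. The other 5 mRNAs had between 0.826% and 14.4% in DoHH-2 and between 0% and 11.5% in GM01953. A high share at the 5′ end was therefore found in mRNAs with and without such a start. Over the 8 mRNAs the first 100 nt held 12% (11.2–12.8) of counts in DoHH-2 and 17.0% (13.3–21.6) in GM01953, against 11.4% and 13.9% in coding genes other than histones. These windows were chosen after the profiles were seen.

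Nucleolin, nucleophosmin and nucleostemin contain stretches rich in aspartate and glutamate, whose codons are rich in purines. Windows of 20 codons with at least 60% of such codons formed 5 stretches, 3 of them in *NCL* and 1 each in *NPM1* and *GNL3*. In *NCL* they cover codons 19 to 48, 137 to 217 and 226 to 280 and held 163 counts in DoHH-2, or 327 per kb against 696 per kb in the rest of the coding sequence. The density ratio was 0.470 (0.397–0.555) in DoHH-2 and 0.317 (0.112–0.730) in GM01953, where they held 6 counts. In *GNL3* the ratio was 0.549 (0.112–1.64) in DoHH-2, from 3 counts. *NPM1* held 3 counts in its stretch, in which 0% of the words were unique. Summed over the 3 genes the ratio was 0.591 (0.501–0.692) in DoHH-2 and 0.353 (0.139–0.752) in GM01953. In DoHH-2 the sum lay above the ratio of each gene, since the genes differ in density, and it includes *NPM1*. With each position counted once the ratio of *NCL* was 0.592 (0.469–0.741) in DoHH-2 and 0.386 (0.0994–1.08) in GM01953. For the sum the interval then held 1 in both, at 0.825 (0.661–1.02) and 0.523 (0.163–1.30). U made up 14.9% of the bases in the stretches and 21.6% in the rest, and the part of base composition in this difference was not tested.

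Across the 8 mRNAs the listed position was a U for 46.2% (44.9–47.4) of DoHH-2 counts and 41.5% (36.1–47.0) of GM01953 counts, although U makes up 23.4% of their bases. A was the base at 11.6% and 14.1% of the counts and makes up 30.2% of the bases. In coding genes other than histones U was at 44% of the DoHH-2 counts and 39.99% of the GM01953 counts. UV light joins proteins to U more readily than to other bases, as is known for this method.

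Small nucleolar RNAs are hosted by 5 of the genes, and 20 are annotated in their introns. In DoHH-2 these held 78 counts, which was 1.11% (0.888–1.38) of all counts of the 8 genes. In GM01953 they held 7, or 1.96% (0.95–3.98). The density was 45.4 counts per kb in DoHH-2, above the 6.55 per kb of the rest of the gene span and below the 352 per kb of the host mRNAs. In GM01953 the order was the same, with 4.08, 0.213 and 16.4 counts per kb. All 14 box C/D RNAs had counts in DoHH-2, 68 in all, and 3 of the 4 box H/ACA RNAs had 7. No position held more than 3 counts. Whether a count came from the excised small nucleolar RNA or from the unspliced precursor cannot be told apart.

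*NOP56*, which encodes a core box C/D protein, carried the most such counts, with 12 in SNORD56, 7 in SNORD110, 6 in SNORD57, 3 in SNORD86 and 1 in SNORA51 in DoHH-2. In *NOP58* there were 7 in SNORD70, 6 in SNORD11B, 4 in SNORD11 and 3 in SNORD70B. In *GNL3* there were 7 in SNORD19B, 3 in SNORD69 and 1 each in SNORD19 and SNORD19C. A further pair of RNAs in *GNL3*, ENSG00000280904 and ENSG00000252787, overlaps and shared 3 counts. In *NCL* there were 5 in SNORD20, 3 in SNORD82 and 1 in SNORA75. *DKC1* held 5 in SNORA56, and SNORA36A held 0 in both lines. The 7 counts of GM01953 were in SNORD11 and SNORD19C with 2 each and in SNORD11B, SNORA56 and SNORD19B with 1 each.

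Counts outside exons and small nucleolar RNAs made up 668 of the 7049 counts of the 8 genes in DoHH-2 and 23 of 358 in GM01953. The share of a gene's counts in exons was lowest in *GNL3* and *NOP56* in DoHH-2, at 73.8% and 77.0%, and highest in *NOLC1* at 94.9%. In GM01953 it was lowest in *NOP58* at 74.4% and 100% in *NCL*, *FBL* and *NOLC1*.

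The exon positions of GM01953 were mostly listed in DoHH-2 as well. Of the 181 positions in GM01953, 126 were also among the 2940 of DoHH-2, which is 69.6% of the former and 4.29% of the latter, whereas the DoHH-2 list covers 12.1% of the exon bases. Over coding genes other than histones, 34.4% of the GM01953 exon positions were listed in DoHH-2, and over the 1272 of them with at least 208 DoHH-2 exon counts, the number of *GNL3*, it was 54.3%. The share of GM01953 positions was highest in *NPM1*, with 37 of 44, and *DKC1*, with 10 of 13. It was lowest in *GNL3*, with 2 of 12.

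Other ribosome assembly genes were set beside the members from 4 lists holding 130 symbols. Of these, 129 were found, and the other, *GLTSCR2*, is an older symbol of *NOP53*, which is in the lists as well. Exon counts were present for 129 genes in DoHH-2 and 110 in GM01953, with sums of 9570 and 6011 CPM. Of the 36 genes with at least 10 counts in each line, 6 were at least 2-fold higher in DoHH-2 and 5 at least 2-fold lower, with a median ratio of 0.996. The median was 0.663 in 6 genes of the snoRNP list, 1.08 in 4 genes of RNA polymerase I and rDNA, 0.976 in 10 genes of small subunit assembly and 1.29 in 16 genes of large subunit assembly. In 62 ribosomal protein genes it was 0.973, with 3 higher and 1 lower. Of all 2610 coding genes with at least 10 counts in each line, 6.74% were at least 2-fold higher and 27% at least 2-fold lower, with a median of 0.786.

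Of these genes the RNA helicase gene *DDX21* had the highest DoHH-2 share, with 702 exon counts against 28 in GM01953 and a ratio of 2.06 (1.41–3.13). *RSL1D1*, which encodes a nucleolar protein with a ribosomal L1 domain, had 667 and 30 counts, a ratio of 1.83 (1.27–2.73). *POLR1F*, a subunit gene of RNA polymerase I, had 524 and 7, and *UBTF*, which encodes a transcription factor of the same polymerase, had 478 and 32, with ratios of 6.16 (2.97–15.4) and 1.23 (0.858–1.82).

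Among genes with at least 10 counts in each line, the large subunit assembly gene *RRP1B* had the highest ratio of 3.29 (2.01–5.80), from 641 and 16 counts. It was followed by *TCOF1*, which encodes treacle, a nucleolar partner of NOLC1, at 3.07 (1.65–6.45), and by the helicase gene *DDX24* at 2.49 (1.47–4.59). The lowest ratios were 0.262 (0.130–0.571) for *RCL1*, a small subunit assembly gene, 0.285 (0.151–0.575) for *WRAP53*, whose protein binds box H/ACA RNAs of Cajal bodies, and 0.384 (0.203–0.787) for the kinase gene *RIOK1*. For *WRAP53* the level on the MANE Select mRNA was 11.2 CPM per kb in DoHH-2 and 10.3 in GM01953, from 40 and 3 counts, so that its low ratio rested on exon counts outside that mRNA. These 3 genes had 35, 45 and 56 counts in DoHH-2 and 11, 13 and 12 in GM01953. Their DoHH-2 shares were 17.2, 22.1 and 27.5 CPM, whereas the minimum of 10 counts is 59.8 CPM in GM01953. A gene with such a DoHH-2 share could enter this ranking only with a ratio well below 1, so that the minimum itself favoured these low ratios.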

How the data were processed

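iCLIP cDNA counts per position were deposited by the authors as raw counts in 1 table per cell line, from 4 DoHH-2 and 2 GM01953 replicates that they had pooled. The authors removed duplicates with BBMap dedupe, demultiplexed with Je and counted with iCount, and HISAT2 and GRCh38 are named in the submitters' processing notes. Versions, the annotation release and the treatment of reads with several matches are not given in the sources used here. The deposited FDR, a q-value from the authors, was used only as a threshold of 0.05.

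Listed positions were read as counted from 0, since only then did both strands show a like base composition (A at 10.4% and 9.17%, G at 24.4% on each, against A at 18.5% and 27.9% and G at 18.0% and 10.5% if counted from 1). Exons, MANE Select transcripts and small nucleolar RNAs came from GENCODE release 44. Wilson, exact Poisson and exact conditional binomial 95% intervals were computed with scipy 1.17.1. The ratio between the lines and its interval were tested on simulated counts, and the map of positions to transcripts was checked base by base. Other steps were not tested in this way. With pooled replicates no leave-one-out fit was possible. Named genes were the 8 members, their small nucleolar RNAs with counts and, from the pathway lists, the 5 highest in DoHH-2 and the 3 highest and 3 lowest ratios. Members and lists were chosen with earlier results of these data known.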

Additional observations from a re-analysis of the deposited data

How the results depend on the processing

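No paired analysis was possible because each table pools its replicates, and for the same reason no replicate could be left out. Of 102 values under other settings, 52 stayed within the counting interval of the reported value or within 1.5 times a reported percentage, 49 moved out of it and 1 reversed. The reversed value was the 5′ UTR density over that of the start codon region in GM01953, 2.42 with all members and 0.979 without *NPM1*; in DoHH-2 it was 3.49 and 2.20. Leaving out *NPM1* was chosen after seeing the data. The exon counts of the members in DoHH-2, in CPM, were 5648 with an FDR below 0.05, 2493 with each position counted once, 3237 with exons of every transcript, 2972 with MANE Select exons only, 2660 at unique words, 3688 without histone genes in the denominator and 4453 with coding exons as the denominator. In GM01953 this share was 2307 with each position counted once, 1723 at unique words, 2187 without histone genes and 3102 with coding exons as the denominator. The ratio between the lines was 2.76 with an FDR below 0.05 and 1.08 with each position counted once, which counts a position once at any depth; for *NPM1* these were 1.51 (1.17–1.97) and 0.372 (0.269–0.525), on opposite sides of 1. Among the regions in DoHH-2, the longest coding transcript gave 11.0% in the 5′ UTR, 6.43% at the start codon, 42.2% in the coding sequence and 33.0% in the 3′ UTR. Codon regions of 25 nt to each side gave 10.5%, 2.17%, 49.1%, 4.98% (stop codon) and 33.3%. Positions counted once gave 6.11%, 6.40%, 54.4%, 6.22% and 26.8%. An FDR below 0.05 gave 10.1% in the 5′ UTR, 42.9% in the coding sequence and 33.9% in the 3′ UTR. Unique words gave 9.43% in the 5′ UTR, 49.96% in the coding sequence, 28.7% in the 3′ UTR and 6.42% at the stop codon. The mean of the members' own shares was 9.23% in the 5′ UTR, 8.55% at the start codon, 25.1% in the 3′ UTR and 9.04% at the stop codon. In GM01953, codon regions of 25 nt gave 16.4% in the 5′ UTR, 2.57% at the start codon and 3.86% at the stop codon, an FDR below 0.05 gave 1.66% at the start codon, and the mean of the members' own shares was 7.08% in the 5′ UTR. The density ratio of acidic stretches in DoHH-2 was 0.374 with at least 70% acidic codons and 0.825 with each position counted once. The share at U in DoHH-2 was 42.0% at 1 base upstream and 49.6% at 1 base downstream, and in GM01953 it was 31.5% at 1 base upstream. The cause of these shifts was not tested. GM01953 had 12 to 103 exon counts per member, which limits its shares by region and its ratios.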
